A study of Mus musculus with 6 samples.

Results

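The 10 genes that heart muscle is known to raise under load or injury, and that were followed heart by heart, are the natriuretic peptide genes Nppa and Nppb, the skeletal actin gene Acta1, and Ankrd1, Gdf15, Rcan1, Xirp1, Xirp2, Uchl1 and Nmrk2. They were taken by symbol from a table of 46095 genes, and all 10 were found and had enough counts to be tested. RNA was sequenced from 3 hearts of STAT3cKO mice, in which the transcription factor STAT3 is deleted in cardiomyocytes only, and from 3 wild-type hearts, whose columns in the table carry the letters NC. Hearts are called here by the numbers in their titles, which are 1, 3 and 4 for wild type and 3, 6 and 91 for STAT3cKO. The labels name no Cre line, floxed allele, strain, age, sex or batch, and they do not say that wild-type mice carried floxed alleles or Cre. Nor do they say that each library came from its own animal, so p-values speak of the spread among these libraries, part of which could be technical.

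Nppa encodes atrial natriuretic peptide and Nppb encodes B-type natriuretic peptide. Both are hormones that stretched heart muscle secretes, and they act through guanylyl cyclase receptors to make the kidney excrete salt and water and to relax vessels. After birth the mouse ventricle lowers Nppa and Acta1, and a loaded or failing ventricle turns them up again, which is why they are read as markers of cardiac stress. The other members report further arms of that response: Ankrd1 and the Xirp genes encode proteins of the sarcomere and the cell junction, Gdf15 a hormone of cell stress, Rcan1 an inhibitor of calcineurin, Uchl1 a ubiquitin hydrolase and Nmrk2 a kinase of NAD synthesis.

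Stretches of 5 promoters are shown because they hold the letters of elements bound by factors that are known to act on cardiac stress genes. The sequences are RefSeq's, on build GRCm38.p6, each written 5′ to 3′ on the strand of its gene, with the matched elements in capitals. The Nppa stretch (chr4:148000652-148000681, plus strand) lies 70 to 41 bases before the start and holds an NKE, the AAGTG letters that NKX2-5 binds. The Nppb stretch (chr4:147985792-147985821, plus strand) lies 108 to 79 bases before the start and holds an MCAT element of the TEAD factors, CATTCC, read on the other strand, and a GATA element, AGATAA. The Acta1 stretch (chr8:123894814-123894850, minus strand) lies 75 to 39 bases before the start and holds a CArG box, the site of SRF, and an MCAT element. The Ankrd1 stretch (chr19:36119866-36119895, minus strand) lies 51 to 22 bases before the start and holds a GATA element read on the other strand. The Rcan1 stretch (chr16:92400244-92400273, minus strand) lies 195 to 166 bases before an inner start of the gene and holds an NFAT core, GGAAAA, and a cAMP element, TGACGTCA. Starts are those of the RefSeq table. GENCODE begins Nppb and Ankrd1 farther upstream, so their stretches lie inside an exon of the gene in that annotation, while those of Nppa, Acta1 and Rcan1 do not.
Nppa: gctgcAAGTGacagaatggggagggttcta
Nppb: gcaGGAATGcagctgataaatcagAGATAA
Acta1: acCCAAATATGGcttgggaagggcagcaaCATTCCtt
Ankrd1: aagaTTATCTcacccagccctagctatata
Rcan1: agGGAAAAtgactaaggtgtTGACGTCAcc

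The RefSeq table held 11 promoters for 9 of the members, and none for Xirp1. Each element was searched on both strands in the 250 bases before the start, and no matches overlapped. MCAT letters stood in 4 of the 11, those of Nppb, Acta1, Ankrd1 and Gdf15, and in 12.6% of all 32851 promoters of the table. GATA letters stood in 2 of the 11 (9.99% of all promoters), NKE letters in 3 (40.7%), NFAT core letters in 1 (20.4%), the cAMP element in 1 (1.55%) and the CArG box in 1 (1.47%). The STAT site TTCNNNGAA, held by 7.02% of all promoters, and TGATGNAA, the element of ATF4 and C/EBP factors, held by 3.45%, were found in 0 of the 11. A match is a description of these letters. Other spellings of an element, GATA elements other than AGATAA among them, and sites outside the window were not searched.

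Total counts ran from 15416877 to 18264052 per heart. Stat3 was at 99.7, 85.8 and 97.5 CPM (read counts scaled by TMM to a common library size) in wild-type hearts 1, 3 and 4, and at 52.9, 63.8 and 59.6 CPM in STAT3cKO hearts 3, 6 and 91, a log2 fold change of -0.68 ± 0.10 (SE; adjusted p = 0.000677, edgeR). Every difference below is STAT3cKO minus wild type, and a gene is said to have risen or fallen where edgeR's quasi-likelihood test, adjusted over the 14484 genes tested, gave a p under 0.05. By that rule 25.8% of all genes changed: 13.2% of all genes were higher and 12.6% of all genes were lower. In 43.0% of all genes the groups did not overlap. Endothelial markers fell in 4 of 5 genes (summed level 949 to 1110 CPM in wild type, 600.0 to 675 in STAT3cKO), and smooth muscle and pericyte markers in 3 of 6 (1410 to 1480 against 820 to 1090 CPM). Red cell markers rose in 4 of 5 (90.7 to 159 against 334 to 685 CPM). Of 6 cardiomyocyte markers 1 rose, Tnnt2, 1 fell, Ryr2, and 4 did not pass. Their sums stood at 19300 to 21200 CPM in wild-type hearts and at 22500 to 24200 CPM in the others. Macrophage markers fell in 2 of 5 (153 to 178 against 91.2 to 135 CPM). Of 5 fibroblast markers 1 rose and 1 fell, with sums of 838 to 1310 against 1370 to 1750 CPM, and of 4 ventricular markers 1 rose, with sums of 11300 to 12100 CPM against 17300 CPM. Wild-type heart 4 also held lung transcripts (Sftpc at 13.2 CPM, at most 0.205 CPM in every other heart). The part that this makeup plays in the results below was not tested. In RNA from heart tissue, fewer cells of a type and less RNA per cell cannot be told apart.

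Gdf15, Rcan1 and Uchl1 rose and Xirp1 fell, so that 3 of the 10 members were higher (13.2% of all genes tested) and 1 was lower (12.6%). The other 6 did not pass, Nppa and Nppb among them. Those 4 members were also the ones whose groups did not overlap, 4 of 10 beside 43.0% of all genes. Log2 fold changes ran from -0.46 to 3.07 with a median of 0.66, beside a median of -0.0016 over all genes tested, and 9 of the 10 were above 0. The size of the changes was uneven between the STAT3cKO hearts: heart 91 had the highest level of all 6 hearts for 8 of the 10 members, while 18.9% of all genes tested were highest there.

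Over the 15 other fits run, 1 to 4 members rose and 0 to 1 fell. Without wild-type heart 3 or 4 there was 1 higher, and of all genes 1290 and 1237 were then higher, against 1918 with all hearts. With no filter on low counts or without STAT3cKO heart 6 there were 4 members higher, and 2032 and 1887 of all genes. Without heart 91, where 20.1% of genes changed (10.4% higher and 9.69% lower), 2 members rose, Gdf15 and Rcan1, and 0 fell. The same members rose, and 0 fell, once each heart's trend of expression on transcript length and GC content was removed (the length and GC offset; 18.8% of genes changed, 10.9% higher and 7.91% lower). With library size as the only scaling (26.4% of genes changed, 7.66% higher and 18.7% lower) Gdf15 rose and Xirp1 fell. With the summed atrial markers as a covariate (23.0% changed, 12.0% higher and 11.1% lower) the same 3 rose and Xirp1 fell.

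**Figure D1:**
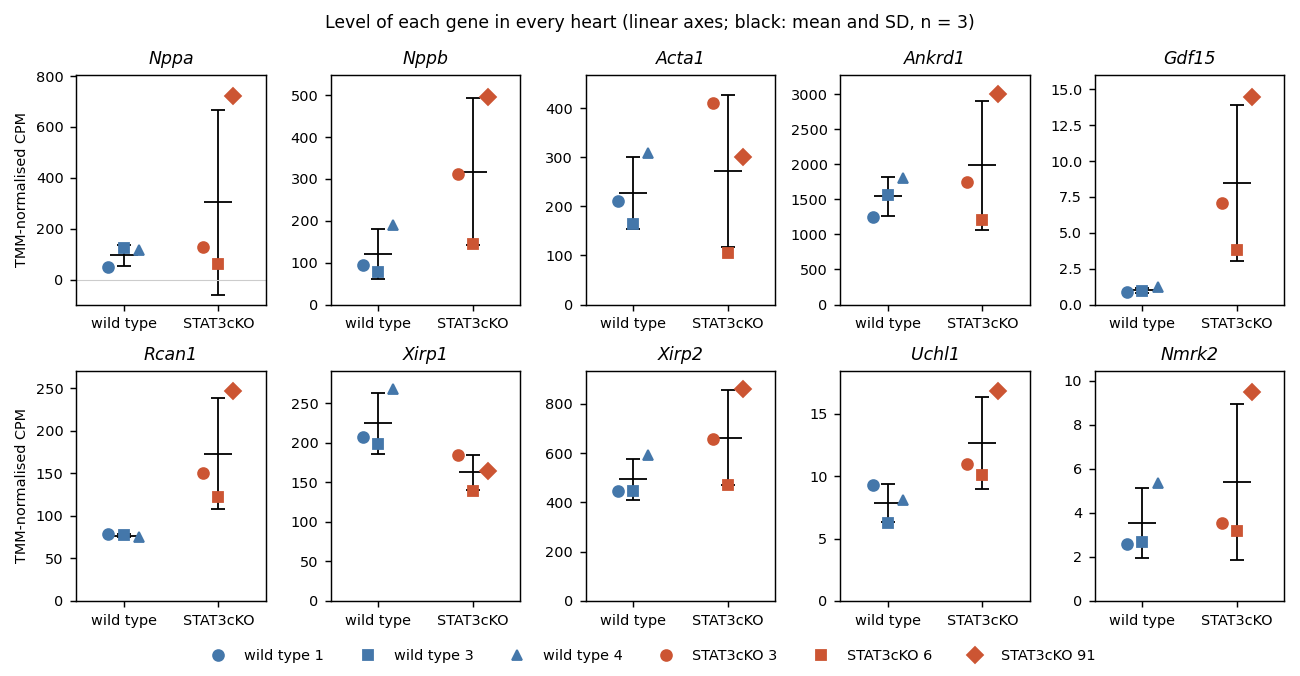
The level of each of the 10 genes in every heart, in TMM-normalised CPM on linear axes, with blue symbols for wild type, red symbols for STAT3cKO and black bars for the mean and SD of 3 hearts. The red diamond, STAT3cKO heart 91, is the highest point for every gene except Acta1 and Xirp1, and the groups are apart for Gdf15, Rcan1, Uchl1 and Xirp1.

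The hormone gene Nppa was at 49.6, 122.9 and 116.6 CPM in wild-type hearts 1, 3 and 4 and at 128.8, 62.3 and 721.5 CPM in STAT3cKO hearts 3, 6 and 91. STAT3cKO heart 91 stood alone, heart 3 was close to the upper wild-type hearts, and heart 6 lay between wild-type hearts 1 and 4, so the groups overlapped. Wild type had a mean of 96.4 ± 40.6 CPM and STAT3cKO one of 304.2 ± 362.9 CPM (SD over 3 hearts), and the log2 fold change was 1.66 ± 1.12 (SE; adjusted p = 0.356, edgeR). Without heart 91 it was -0.0060 (adjusted p = 0.997, edgeR). In heart 91 Nppa was 7.55 times the mean of the other STAT3cKO hearts, a ratio that 0.0345% of the genes tested reached or exceeded.

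Nppb was at 95.1, 77.9 and 190.1 CPM in wild-type hearts 1, 3 and 4 and at 311.1, 144.5 and 496.6 CPM in STAT3cKO hearts 3, 6 and 91. Hearts 3 and 91 were above every wild-type heart and heart 6 was below wild-type heart 4, so the groups overlapped through a single pair. The log2 fold change was 1.39 ± 0.63 (SE; adjusted p = 0.193, edgeR), and 0.92 without heart 91 (adjusted p = 0.405, edgeR). Both hormone genes were thus highest in heart 91 and lowest of the STAT3cKO hearts in heart 6. The root mean square (RMS) difference between their centred log2 CPM values over the 6 hearts was 0.79. From the other members Nppa differed by 0.74 (Nmrk2) to 1.31 (Xirp1), and Nppb by 0.50 (Rcan1) to 1.03 (Xirp1).

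Nppb (GRCm38 chromosome 4, 147985788 to 147987205, plus strand) and Nppa (chromosome 4, 148000722 to 148002079, plus strand) stand side by side with 13517 bases between them. With all hearts the genes on either side of the pair were not called: Clcn6, on the opposite strand with its end 2180 bases past Nppa, had a log2 fold change of -0.17 (adjusted p = 0.434, edgeR), and 2510039O18Rik, on the Nppb side, had one of -0.27 (adjusted p = 0.161, edgeR), which passed without STAT3cKO heart 3 (-0.43, adjusted p = 0.0346, edgeR). In STAT3cKO heart 91, where Nppa was so high, Clcn6 was at 8.87 CPM, inside its range of 8.08 to 9.87 CPM over the wild-type hearts. An antisense gene, Gm13054, shares 532 bases of exon with Nppa. It has no row in the count table, and whether counting used strand is not given in the sources used here, so its reads cannot be told apart from those of Nppa.

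Atrial muscle makes far more Nppa than ventricle, so atrial markers were read beside it. Myl7, the atrial regulatory light chain, was at 0.875, 161.2 and 23.4 CPM in wild-type hearts 1, 3 and 4 and at 34.9, 0.844 and 0.986 CPM in STAT3cKO hearts 3, 6 and 91. Sln, sarcolipin, was at 0.154, 27.0 and 5.76 CPM and at 11.3, 0.0649 and 0 CPM in the same hearts. The 5 atrial markers (Myl7, Myl4, Sln, Bmp10 and Dkk3) summed to between 8.03 and 439 CPM in the wild-type hearts and to between 15.2 and 122 CPM in the others, and 0 of the 4 tested passed. Myl4, the atrial essential light chain, was at 2.57, 173.8 and 34.5 CPM and at 64.0, 4.999 and 6.62 CPM. Dkk3 was at 4.43, 76.7 and 8.94 CPM and at 11.8, 9.15 and 28.5 CPM, and Bmp10 at no more than 0.205 CPM in any heart. In heart 91, which had the most Nppa, Myl7 and Sln were thus at or near 0, Myl4 was low, and Dkk3 was higher than in every heart but wild-type heart 3. The part of atrial tissue in the level of Nppa was not tested. With the summed atrial markers as a covariate the log2 fold change of Nppa was 1.89 (adjusted p = 0.389, edgeR).

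**Figure D2:**
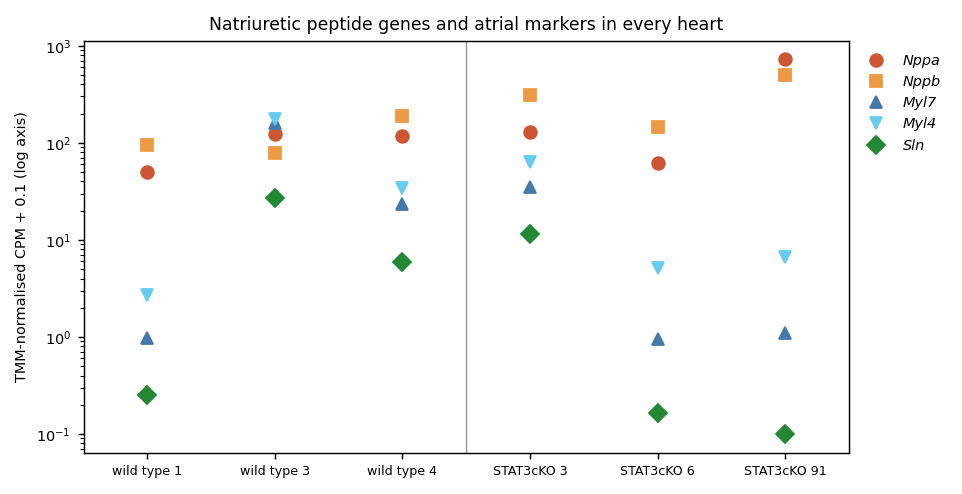
Nppa, Nppb and the atrial markers Myl7, Myl4 and Sln in each of the 6 hearts, as TMM-normalised CPM plus 0.1 on a log axis. Nppa is highest in STAT3cKO heart 91, where Myl7 is at 0.986 CPM, while Myl7 reaches 161.2 CPM in wild-type heart 3.

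Hormone processing and response were read from 16 further genes, among them the receptors, the proteases that cut the precursors and the enzymes that degrade the peptides or cyclic GMP. Of the 13 tested, 0 rose (13.2% of all genes), 6 fell (12.6%) and 7 did not pass, and their median log2 fold change was -0.26. Npr3, the clearance receptor that removes the peptides, was at 37.5, 33.8 and 37.5 CPM in wild-type hearts 1, 3 and 4 and at 19.6, 19.5 and 25.8 CPM in STAT3cKO hearts 3, 6 and 91. The groups were well apart, and the log2 fold change was -0.74 ± 0.12 (SE; adjusted p = 0.00139, edgeR). The signalling receptors did not pass: Npr1 had a log2 fold change of -0.14 (adjusted p = 0.421, edgeR) and Npr2 of 0.12 (adjusted p = 0.321, edgeR). Nppc, the C-type peptide, had no count in any heart.

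Among the proteases, Furin, which cuts the B-type precursor, had a log2 fold change of -0.40 (adjusted p = 0.00552, edgeR), and Corin, which cuts the atrial one, of -0.28 (adjusted p = 0.0379, edgeR). Mme, the neprilysin gene, whose enzyme breaks the peptides down, fell by 1.01 on the log2 scale (adjusted p = 0.0106, edgeR), and Pde5a, a phosphodiesterase of cyclic GMP, by 0.72 (adjusted p = 0.01, edgeR). Some endothelial and smooth muscle markers also fell, as given above, and the part of those cells in these decreases was not tested. The call of Corin was lost in 5 of the 6 fits that left out a heart (all but the one without STAT3cKO heart 91), with adjusted p-values of 0.0512 to 0.143 from edgeR, and that of Pde5a without wild-type heart 3 (adjusted p = 0.0502, edgeR). With the length and GC offset Npr3 alone of the list still fell, by 0.47 (adjusted p = 0.0217, edgeR, with 7.91% of all genes lower in that fit).

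All 13 transcription factors listed for the natriuretic peptide genes were tested, and 0 rose, 4 fell and 9 did not pass, with a median log2 fold change of -0.07. Gata4 and Nkx2-5, whose elements the promoters above hold, had log2 fold changes of -0.04 and -0.07 and did not pass. Rest, a repressor that keeps fetal cardiac genes low, was at 8.75, 9.66 and 11.8 CPM in wild-type hearts 1, 3 and 4 and at 3.75, 4.999 and 5.75 CPM in STAT3cKO hearts 3, 6 and 91. Its groups did not overlap, and it fell by 1.05 on the log2 scale (adjusted p = 0.00244, edgeR). Gata6 fell by 0.40 (adjusted p = 0.0079, edgeR). Tead1, a factor of MCAT elements, and Tbx5 fell by 0.40 and 0.44 (edgeR adjusted p = 0.0178 and 0.0391), but with that offset Tead1 was at -0.02 (adjusted p = 0.923, edgeR) and Tbx5 had an adjusted p of 0.107. Tead1 also did not pass without wild-type heart 4 or STAT3cKO heart 3 (adjusted p = 0.0789 and 0.0748), and Tbx5 without wild-type heart 3 or 4 or STAT3cKO heart 3 or 91 (adjusted p from 0.092 to 0.155). With the offset 1 gene of this list was higher and 2 were lower, and the lower ones numbered 2 without wild-type heart 4 or without STAT3cKO heart 3.

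Acta1, the actin of skeletal muscle that fetal and loaded hearts also make, was at 211, 163 and 308 CPM in wild-type hearts 1, 3 and 4 and at 410.2, 105 and 300.0 CPM in STAT3cKO hearts 3, 6 and 91. STAT3cKO hearts held both its highest and its lowest level, so the groups overlapped. The log2 fold change was 0.26 ± 0.59 (SE; adjusted p = 0.787, edgeR), and it was -0.17 without STAT3cKO heart 3. Acta1 did not follow Nppa, since heart 91 was 1.16 times the mean of the other STAT3cKO hearts for Acta1, and 20.9% of genes had a ratio at least as high. Markers of skeletal muscle, which also makes Acta1, were read beside it. Myh4 had 0 counts in every heart, and Myh1 and Myh2 at most 1. The 9 skeletal muscle markers summed to 2.47 to 3.51 CPM in wild-type hearts and to 4.87 to 7.08 CPM in the others, and 2 of the 5 tested rose, Tnnt3 and Pvalb, which stayed at or under 2.34 CPM in every heart. Their part in Acta1 was not tested.

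Of the 5 other actin genes, 0 rose, 2 fell and 3 did not pass. Acta2, the smooth muscle actin, was at 122.6, 145.9 and 103.9 CPM in wild-type hearts 1, 3 and 4 and at 27.2, 32.3 and 28.2 CPM in STAT3cKO hearts 3, 6 and 91, and fell by 2.09 on the log2 scale (adjusted p = 2.36e-06, edgeR). Actg2, the enteric smooth muscle actin, had 31, 45 and 11 counts in wild-type hearts 1, 3 and 4 and 2, 2 and 1 in STAT3cKO hearts 3, 6 and 91 (adjusted p = 0.00219, edgeR). Both belong to smooth muscle, whose markers are given above. Actc1, the actin of the adult heart, had a log2 fold change of 0.03 (adjusted p = 0.935, edgeR), with values between -0.23 and 0.18 when single hearts were left out.

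Ankrd1 encodes a repeat protein that binds titin at the I band of the sarcomere and also moves to the nucleus. It was at 1254, 1568 and 1811 CPM in wild-type hearts 1, 3 and 4 and at 1749, 1212 and 2998 CPM in STAT3cKO hearts 3, 6 and 91. Heart 91 was the highest of all and heart 6 the lowest of all, and heart 3 lay inside the wild-type range. The log2 fold change was 0.36 ± 0.36 (SE; adjusted p = 0.516, edgeR) and -0.05 without heart 91 (adjusted p = 0.873, edgeR).

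Xirp1 and Xirp2 encode actin-binding proteins with Xin repeats, found at the intercalated disc and the Z-disc. Xirp1 was at 207.6, 198.2 and 268.3 CPM in wild-type hearts 1, 3 and 4 and at 184.2, 139.8 and 165.0 CPM in STAT3cKO hearts 3, 6 and 91. Every STAT3cKO heart was below every wild-type heart, by a narrow gap between STAT3cKO heart 3 and wild-type heart 3. Xirp1 fell by 0.46 ± 0.13 on the log2 scale (SE; adjusted p = 0.024, edgeR), to 0.725 of the wild-type level. The call was lost with the offset (-0.26, adjusted p = 0.219, edgeR), nor without wild-type heart 4 (adjusted p = 0.0953, edgeR), STAT3cKO heart 6 (0.0616) or STAT3cKO heart 91 (0.061). Xirp1 and Cx3cr1, a receptor gene of macrophages, overlap on the same strand without sharing exon bases. Cx3cr1 fell by 1.25 (adjusted p = 0.0064, edgeR), and reads in the shared stretch could have been given to either gene.

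Xirp2 was at 446, 445 and 590.2 CPM in wild-type hearts 1, 3 and 4 and at 655, 472 and 858 CPM in STAT3cKO hearts 3, 6 and 91. Hearts 3 and 91 were above all wild-type hearts and heart 6 was below wild-type heart 4. Its log2 fold change was 0.42 ± 0.22 (SE; adjusted p = 0.194, edgeR), it was 0.61 without STAT3cKO heart 6 (adjusted p = 0.0149, edgeR), and with no filter on low counts it was 0.40 (adjusted p = 0.0226, edgeR). Xirp2 has the longest transcript among the members, 11979 bases, and the offset raised its log2 fold change to 0.85 (adjusted p = 0.0576, edgeR). The difference between Xirp1 and Xirp2 itself was not tested.

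A list of 14 genes whose products bind ANKRD1 or the XIRP proteins, or share their place at the Z-disc and titin, was read beside them. Of the 13 tested, 4 rose (13.2% of all genes), 0 fell and 9 did not pass, and the median log2 fold change was 0.04. Csrp3, the muscle LIM protein of the Z-disc, was at 1005, 864 and 897 CPM in wild-type hearts 1, 3 and 4 and at 1226, 1237 and 1386 CPM in STAT3cKO hearts 3, 6 and 91, and rose by 0.48 on the log2 scale (adjusted p = 0.00616, edgeR). Ankrd23, a relative of Ankrd1 that also binds titin, rose by 0.60 (adjusted p = 0.00988, edgeR). Enah, an actin filament protein that binds Xin, rose by 0.48 (adjusted p = 0.0138, edgeR), and Fhl2, a LIM protein on titin, by 0.37 (adjusted p = 0.0365, edgeR). With library size as the only scaling 2 of the list were higher, and Enah and Fhl2 then had adjusted p-values of 0.078 and 0.121. Enah did not pass without wild-type heart 1 (adjusted p = 0.0599), nor Fhl2 with the offset (0.186), without wild-type heart 3 or 4 (0.163 and 0.12) or without STAT3cKO heart 3 or 6 (0.0675 and 0.091).

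Gdf15, a hormone of the TGF-beta family that stressed cells release, showed the largest fold change of the 10 members. It had 17, 16 and 22 counts in wild-type hearts 1, 3 and 4 and 104, 59 and 264 counts in STAT3cKO hearts 3, 6 and 91. In CPM the wild-type hearts were at 0.875, 0.955 and 1.21 and the STAT3cKO hearts at 7.10, 3.83 and 14.4. The wild-type hearts were close together, the STAT3cKO hearts were spread over a wide range, and the lowest STAT3cKO heart was still far above the highest wild-type heart. Gdf15 rose by 3.07 ± 0.51 on the log2 scale (SE; adjusted p = 0.00464, edgeR), 8.37-fold. It rose by 2.43 without heart 91 (adjusted p = 0.000596, edgeR) and passed under all 15 alternatives run for it, with adjusted p-values between 3.67e-22 and 0.0363.

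Gdf15 is a known target of the integrated stress response, in which ATF4 drives amino acid and one-carbon genes, and of p53. Of 15 tested genes of these pathways 5 rose, 1 fell and 9 did not pass, and the median log2 fold change was 0.34. Mthfd2, a mitochondrial one-carbon enzyme, was at 2.68, 2.62 and 2.58 CPM in wild-type hearts 1, 3 and 4 and at 5.39, 3.96 and 6.24 CPM in STAT3cKO hearts 3, 6 and 91. Its groups did not overlap, and it rose by 0.99 (adjusted p = 0.00854, edgeR). Cdkn1a, the p53 target p21, rose by 1.08 (adjusted p = 0.0182, edgeR) and was highest in heart 6, at 43.9 CPM. Atf4 rose by 0.28 (adjusted p = 0.0274, edgeR), Trib3 by 0.89 (adjusted p = 0.0285, edgeR) and Atf3 by 0.73 (adjusted p = 0.0292, edgeR), while Shmt2, another mitochondrial one-carbon enzyme, fell by 0.35 (adjusted p = 0.0138, edgeR). Cdkn1a did not pass without wild-type heart 1 or STAT3cKO heart 91 (adjusted p = 0.0531 and 0.0532), and Atf4 passed in 1 of the 6 fits that left out a heart, the one without STAT3cKO heart 6. Trib3 did not pass without wild-type heart 1 or 4 or STAT3cKO heart 3 or 91 (adjusted p from 0.0524 to 0.0999), nor Atf3 without wild-type heart 1 or 3 or STAT3cKO heart 3 (0.0778 to 0.125). With library size alone Atf4, Trib3 and Atf3 did not pass (adjusted p = 0.23, 0.0577 and 0.0604), and with the offset Atf4 and Atf3 did not (0.15 and 0.0635). The count of higher genes was 1 without wild-type heart 1, 2 without STAT3cKO heart 3 or 91 or with library size alone, 3 with the length and GC offset and 7 without STAT3cKO heart 6. Gfral, the receptor of GDF15, had no count in any heart.

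Rcan1, which binds and inhibits the phosphatase calcineurin and is itself induced through NFAT from its inner start, was at 78.2, 77.2 and 74.7 CPM in wild-type hearts 1, 3 and 4 and at 150.1, 122.4 and 246.5 CPM in STAT3cKO hearts 3, 6 and 91. The wild-type hearts were nearly equal: 95.2% of genes varied at least as much among them. All STAT3cKO hearts were above all wild-type hearts, heart 91 most and heart 6 least. Rcan1 rose by 1.17 ± 0.26 on the log2 scale (SE; adjusted p = 0.0219, edgeR), 2.26-fold, and by 0.84 without heart 91 (adjusted p = 0.00031, edgeR). It did not pass with library size as the only scaling (adjusted p = 0.0661, edgeR) or without wild-type heart 1, 3 or 4 (edgeR adjusted p = 0.0707, 0.0657 and 0.0869). The table counts the gene as a whole, so its starts were not read separately.

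Calcineurin subunits, NFAT factors and their regulators were read beside Rcan1. Of 15 tested, 0 rose, 4 fell and 11 did not pass, with a median log2 fold change of -0.15. Akap5, an anchoring protein for calcineurin, fell by 0.98 (adjusted p = 0.00335, edgeR), Nfatc3 by 0.38 (adjusted p = 0.0181, edgeR) and Chp1, a calcineurin-like protein, by 0.29 (adjusted p = 0.0209, edgeR). Of the paralogs of Rcan1, Rcan3 fell by 0.41 (adjusted p = 0.0424, edgeR) and Rcan2 had a log2 fold change of -0.20 (adjusted p = 0.134, edgeR). With the length and GC offset 2 of the list were higher and 2 lower, and with library size alone 7 were lower. Left-out hearts gave 1 to 3 lower: Rcan3 passed in none of the 6 such fits, Nfatc3 was lost without wild-type heart 3 or 4 or STAT3cKO heart 91, and Chp1 without wild-type heart 1 or 4 or STAT3cKO heart 3. Akap5 passed in all 6.

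Uchl1 encodes a ubiquitin hydrolase best known from neurons, which injured heart muscle also makes. It was at 9.27, 6.26 and 8.06 CPM in wild-type hearts 1, 3 and 4 and at 11.0, 10.1 and 16.9 CPM in STAT3cKO hearts 3, 6 and 91. All STAT3cKO hearts were above all wild-type hearts, with a small gap between wild-type heart 1 and STAT3cKO heart 6. Uchl1 rose by 0.69 ± 0.21 on the log2 scale (SE; adjusted p = 0.0326, edgeR), 1.61-fold. The call was lost without heart 91 (0.43, adjusted p = 0.124, edgeR), with the offset (0.41, adjusted p = 0.168, edgeR), with library size alone (adjusted p = 0.0986, edgeR) or without wild-type heart 3 or 4 (edgeR adjusted p = 0.112 and 0.091). Nerve also makes Uchl1, and the 8 markers of neurons and Schwann cells had sums of 21.4 to 30.5 CPM in wild-type hearts and of 16.6 to 21.3 CPM in the others, 1 of the 6 tested fell, Th had 0 counts in every heart and Snap25 at most 1. Their sum was lowest in heart 91, at 16.6 CPM, where Uchl1 was highest, and the part of nerve was not tested. Its antisense gene Uchl1os, which shares 295 bases of exon, had at most 1 count in any heart.

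Among 8 other ubiquitin hydrolase and ubiquitin genes, 4 rose, 0 fell and 4 did not pass, with a median log2 fold change of 0.36. Uchl3, a paralog of Uchl1, rose by 0.56 (adjusted p = 0.00488, edgeR), and Uchl5, another, had a log2 fold change of 0.16 (adjusted p = 0.307, edgeR). Of the ubiquitin precursor genes, Rps27a rose by 0.96 (adjusted p = 0.00377, edgeR) and Ubb by 0.32 (adjusted p = 0.0297, edgeR). Rps27a encodes ubiquitin joined to a ribosomal protein and has many near-identical copies in the genome, which leaves its read assignment uncertain. The count of higher genes was 2 with the offset, with library size alone, and without wild-type heart 4. Ubb was lost in 4 of the 6 fits that left out a heart, those without wild-type heart 1, 3 or 4 or STAT3cKO heart 6.

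Nmrk2, the muscle kinase that turns nicotinamide riboside into a precursor of NAD, was at 2.57, 2.68 and 5.38 CPM in wild-type hearts 1, 3 and 4 and at 3.55, 3.18 and 9.47 CPM in STAT3cKO hearts 3, 6 and 91. Heart 91 was the highest, and the other STAT3cKO hearts lay inside the wild-type range. The log2 fold change was 0.62 ± 0.50 (SE; adjusted p = 0.404, edgeR) and -0.07 without heart 91 (adjusted p = 0.907, edgeR). Nmrk2 shares 270 bases of exon with the antisense gene Atcayos. Atcayos had 316, 330 and 415 counts in wild-type hearts and 412, 647 and 488 in STAT3cKO hearts, more than Nmrk2 in each (45 to 98 and 49 to 173 counts). Atcayos was highest in heart 6 and Nmrk2 in heart 91. Without the strand setting, reads of the shared bases cannot be told apart.

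Of 17 tested genes of NAD synthesis and use, 0 rose, 1 fell and 16 did not pass, with a median log2 fold change of 0.11. Parp1, an NAD-consuming enzyme of DNA repair, was at 57.9, 53.8 and 62.1 CPM in wild-type hearts 1, 3 and 4 and at 36.4, 35.8 and 31.3 CPM in STAT3cKO hearts 3, 6 and 91, and fell by 0.75 (adjusted p = 0.000441, edgeR). Nmrk1, the paralog of Nmrk2, had a log2 fold change of 0.21 (adjusted p = 0.521, edgeR). Nampt, which recycles nicotinamide, had one of 0.33 (adjusted p = 0.112, edgeR), and rose by 0.48 without heart 91 (adjusted p = 0.0111, edgeR).

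**Figure D3:**
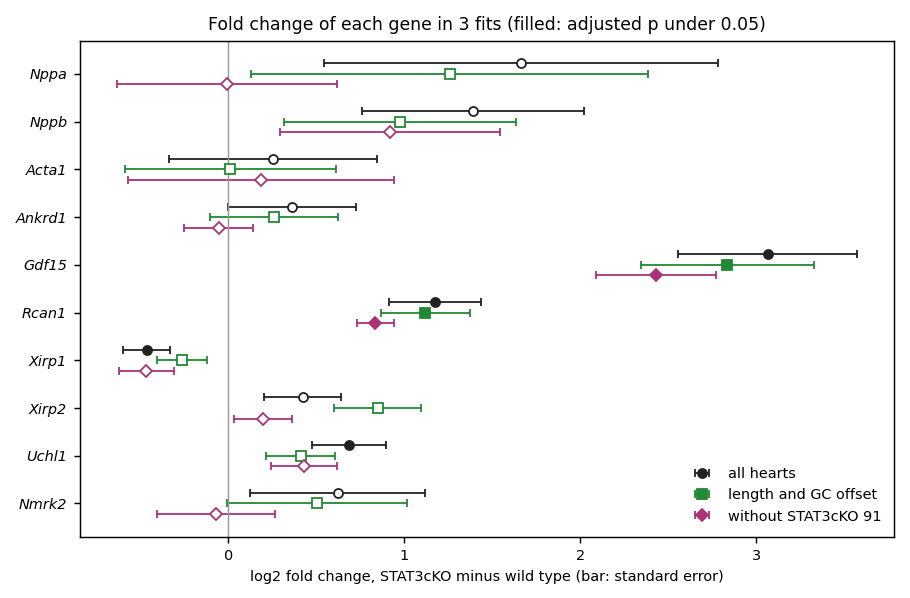
Log2 fold change of each gene, STAT3cKO minus wild type, with its standard error, in the fit of all hearts (black circles), with the length and GC offset (green squares) and without STAT3cKO heart 91 (purple diamonds). Filled symbols had an adjusted p under 0.05: Gdf15 and Rcan1 are filled in all 3 fits, and Nppa moves from 1.66 to -0.0060 when heart 91 is left out.

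STAT3cKO heart 91 was the highest of the STAT3cKO hearts for 8 of the 10 members, beside 33.5% of all genes tested, and the exceptions were Acta1 and Xirp1. Its level relative to the mean of STAT3cKO hearts 3 and 6 was 7.55 for Nppa, 2.81 for Nmrk2, 2.65 for Gdf15, 2.18 for Nppb and 2.03 for Ankrd1. For Rcan1 the ratio was 1.81, for Uchl1 1.60 and for Xirp2 1.52. A ratio at least as high was reached by 0.539% of genes for Nmrk2, 0.649% for Gdf15, 1.42% for Nppb and 1.78% for Ankrd1. Heart 6 was at the other end. It was the lowest of all 6 hearts for Acta1, Ankrd1 and Xirp1 (18.0% of all genes were lowest there). Among the STAT3cKO hearts it was the lowest for all 10 members. The share of all genes that were lowest of the STAT3cKO hearts there was not computed, while 36.5% were highest of them there. Against the wild-type mean, heart 91 was 14.3-fold for Gdf15, 7.49-fold for Nppa, 4.10-fold for Nppb and 3.21-fold for Rcan1, and 0.734-fold for Xirp1.

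**Figure D4:**
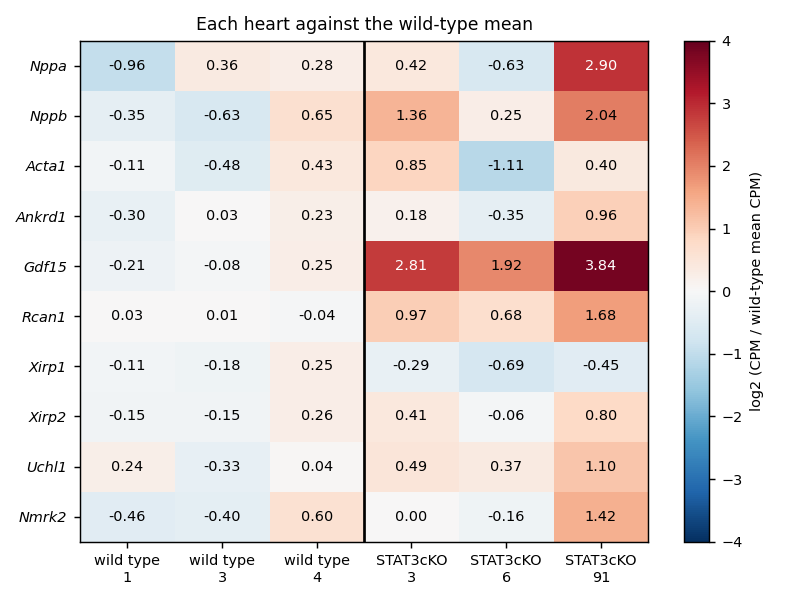
Each heart's level of each gene relative to the wild-type mean, as log2 of the CPM ratio, with wild-type hearts left of the black line and STAT3cKO hearts right of it. The column of STAT3cKO heart 91 is red for every gene except Xirp1. The rows of Gdf15, Rcan1, Nppb and Uchl1 are above 0 in all 3 STAT3cKO hearts, and the column of heart 6 holds values below 0 for 6 of the 10 genes.

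The slow myosin heavy chain Myh7, the other classical fetal gene of the ventricle, was also highest in heart 91. It was at 87.2, 102.7 and 107.5 CPM in wild-type hearts 1, 3 and 4 and at 364, 581 and 3424 CPM in STAT3cKO hearts 3, 6 and 91. Unlike Nppa it was above the wild-type range in every STAT3cKO heart, with a log2 fold change of 3.88 ± 1.11 (SE; adjusted p = 0.0754, edgeR) that became 2.26 without heart 91 (adjusted p = 0.000583, edgeR). The Wald test of DESeq2 gave Myh7 an adjusted p of 0.000855. Of the 9 tested fetal and adult isoform genes, 1 rose, 1 fell and 7 did not pass. Tnni3, adult troponin I, rose by 0.62 (adjusted p = 0.00124, edgeR) and Atp2a2, the calcium pump of the sarcoplasmic reticulum, fell by 0.55 (adjusted p = 0.0071, edgeR). With the length and GC offset neither passed. Myh6, the adult fast chain, had a log2 fold change of -0.08 (adjusted p = 0.704, edgeR), which turned to 0.14 with the offset.

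Several of the lists had 0 genes in a direction. At an unadjusted p under 0.05, which 38.6% of all genes reached, edgeR had 0 higher and 6 lower in the natriuretic peptide system, 0 and 5 among its transcription factors and 1 and 6 in the calcineurin list. The same counts were 0 and 2 for the other actins, 4 and 1 for the partners of ANKRD1 and the XIRP proteins, 1 and 4 for NAD genes and 5 and 0 for the ubiquitin list. DESeq2 and limma-voom also called 0 genes higher in the natriuretic peptide, transcription factor, calcineurin, actin and NAD lists and 0 lower in the ubiquitin list, while each called 1 lower among the partners of ANKRD1 and the XIRP proteins. Other fits did call genes higher: 2 NAD genes with no filter on low counts and 1 without STAT3cKO heart 3 or 91, 2 calcineurin genes with the offset and 1 without STAT3cKO heart 6, and 1 transcription factor with the offset. With library size alone 1 ubiquitin gene was lower.

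**Figure D5:**
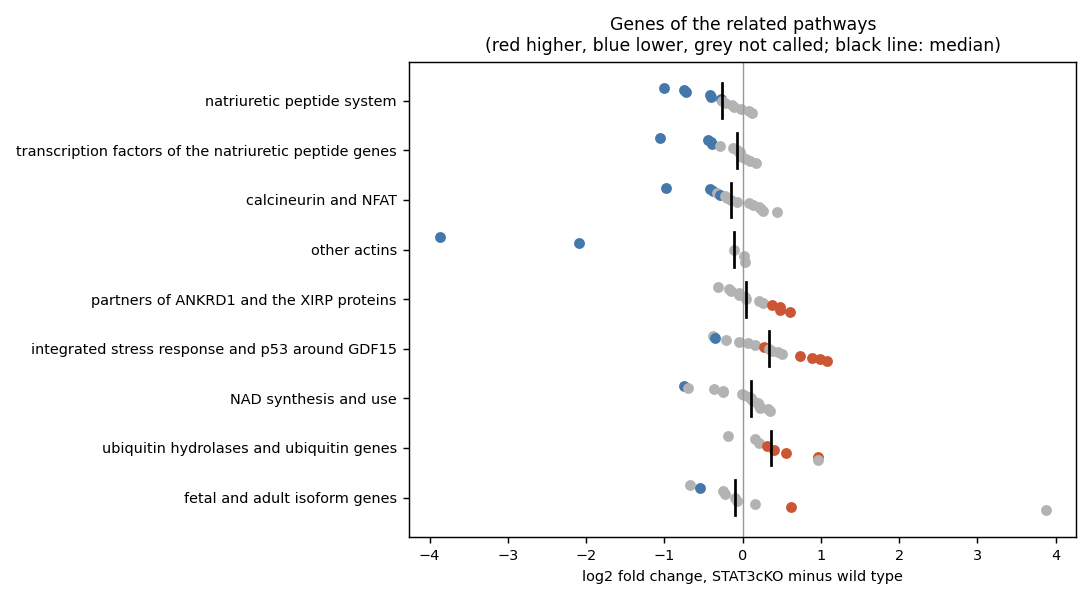
Log2 fold change, STAT3cKO minus wild type, of each tested gene in the 9 lists read beside the members, with red points for higher, blue for lower and grey for genes that did not pass, and a black line at each list's median. The natriuretic peptide system, its transcription factors and the calcineurin list hold blue and grey points only, and the ubiquitin and ANKRD1 lists red and grey ones only.

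Levels were compared between genes as CPM per kilobase of the longest annotated transcript. In wild type Ankrd1 was the highest at 764 ± 138 CPM per kb (SD, n = 3), apart from all others. Acta1 (157 ± 51.1), Nppb (155 ± 77.4) and Nppa (111 ± 46.9) followed with overlapping ranges, then Xirp2 (41.2 ± 6.98) and Xirp1 (38.5 ± 6.52), which overlapped each other, and Rcan1 (33.0 ± 0.784). Uchl1 was at 6.68, Nmrk2 at 1.91 and Gdf15, the lowest, at 0.655 CPM per kb, each apart from its neighbours. In STAT3cKO the means ran from 983 CPM per kb for Ankrd1 through 406 for Nppb, 352 for Nppa, 188 for Acta1, 74.4 for Rcan1 and 55.2 for Xirp2. From Ankrd1 down to Rcan1 each gene overlapped the next. Xirp1 followed at 27.9, apart from Xirp2, and Uchl1 at 10.8, apart from Xirp1 but overlapping Gdf15. Gdf15 then stood at 5.48, above Nmrk2 at 2.91, with ranges that overlapped.

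Profiles were also compared over the 6 hearts, by the RMS difference of log2 CPM after centring each gene, among 11177 genes. Among the members themselves Ankrd1 and Xirp2 were the closest pair (0.18), then Uchl1 and Xirp2 (0.26) and Rcan1 and Uchl1 (0.29). The 3 nearest other genes to Rcan1 were Abra (0.14), which encodes an activator of SRF signalling in striated muscle, Cd99 (0.17) and Mthfd2 (0.18). Abra was at 32.5, 30.4 and 31.3 CPM in wild-type hearts 1, 3 and 4 and at 68.4, 47.6 and 81.8 CPM in STAT3cKO hearts 3, 6 and 91. Nearest to Nppa were Nudt3 (0.47), Postn (0.66), the matrix protein periostin, and Edn3 (0.67). Postn was at 54.0 to 105.9 CPM in wild type and at 77.7, 90.6 and 293.6 CPM in STAT3cKO hearts 3, 6 and 91. Nearest to Nppb were Panx1 (0.28), Mtl5 (0.39) and Tnfrsf12a (0.40), the receptor of the cytokine TWEAK.

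Ankrd1 had as its nearest genes Synpo2l (0.13), which encodes a Z-disc actin-binding protein, and BC037034 (0.16), and Xirp2 had Otulin (0.09), Hbegf (0.10), a growth factor of the EGF family, and Kin (0.11). Gdf15 had no close neighbour, with Scgb1c1 (0.63), Myh7b (0.64) and Cnksr1 (0.69) the nearest. Xirp1 had the closest of all: Zbtb1 (0.05), Rbl1 (0.07) and Spata2 (0.07), a gene with little variation having more genes near it. The nearest to Acta1 were Fstl4 (0.31), Pkdcc (0.33) and Dok3 (0.34), to Uchl1 Nr0b2 (0.12), Dcaf13 (0.12) and Psmb10 (0.13), and to Nmrk2 Nmral1 (0.26), Dusp4 (0.27) and Mx2 (0.28). These distances describe 6 hearts and were not tested.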

How the data were processed

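Hearts of 2 groups (3 libraries each) were compared from the raw read counts per gene that the authors deposited. Per the labels' protocols, total RNA with an integrity number over 8.0 was used. Per the submitters' processing notes, HISAT2 and build GRCm38 were used. Not given in the sources used here are the counting program, its strand setting and what was done with multi-mapping reads. Counts were filtered with filterByExpr (minimum count 10), scaled by TMM and fitted with edgeR 4.0.16 (robust quasi-likelihood F test, Benjamini-Hochberg over 14484 genes) in R 4.3.3. The fit was tested on simulated data made from these libraries, where 93 of 97 genes changed 4-fold were recovered. Smaller changes were also simulated, and their recovery is not reported here, so this figure does not speak for them. The SE is the log2 fold change over the square root of F. The members and lists were chosen with earlier results of these data known. Named genes are the members, from each list the up to 4 passing genes of smallest adjusted p, receptors, proteases and paralogs, Myh6, Myh7 and Stat3, genes beside members, and the 3 nearest profiles. Some genes that this rule takes stay in the counts but are not reported here by name. Trib3, Atf3 and cell markers were named after their values were seen. Alternatives were DESeq2 1.42.0 (Wald test or its size factors), library size, no filter, a stricter filter, limma-voom (limma 3.58.1), the length and GC offset (splines with 5 degrees of freedom; 93.8% of genes had a length), removal of globin and mitochondrial genes, leaving out each heart, and, added after seeing the data, an atrial covariate. Loci are from GENCODE on GRCm38.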

Additional observations from a re-analysis of the deposited data

How the results depend on the processing

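Gdf15 was higher in every fit run. With all hearts 1918 genes were higher and 1820 lower. Scaled by library size alone the counts were 1109 and 2714, the median of all genes moved to -0.11, and the members higher numbered 1. The length and GC offset left 1145 genes and 0 members lower. Leaving out single hearts gave 1237 to 1887 genes higher, 1198 to 1999 lower, 1 to 4 members higher and 0 to 1 lower; the lowest counts of higher and of lower genes came without wild-type heart 4. Fold changes that turned sign on the log2 scale when a heart was left out ranged from -0.0060 to 2.14 for Nppa, -0.17 to 0.64 for Acta1, -0.054 to 0.62 for Ankrd1, -0.069 to 1.05 for Nmrk2, -0.23 to 0.18 for Actc1, -0.17 to 0.061 for Myh6, -0.086 to 0.031 for Gata4 and -0.13 to 0.034 for Nkx2-5. Actc1 was at -0.10 with library size, -0.14 with the offset and -0.041 with the atrial covariate. With the offset Uchl5 was at -0.0065, Clcn6 at 0.025 and Myh6 at 0.14. The cause was not tested. Over the alternatives, 131 fold changes of members kept the direction and the side of the threshold, 13 lost the call, 2 gained one and 4 turned; for the other named genes 612 kept both, 75 lost the call, 6 gained one and 11 turned. No paired analysis was possible because the groups share only the number 3 in their titles. With 3 hearts a group, a gene that did not pass may still differ.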

Other observations

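STAT3cKO heart 6 was the lowest of its group for all 10 members. The matching share of all genes, those lowest of the group there, was not computed. The share highest of the group there, a different measure, was 36.5% of all genes tested. Egr1, an immediate early transcription factor, was at 10.8, 18.4 and 13.5 CPM in wild-type hearts 1, 3 and 4 and at 20.1, 68.4 and 24.0 CPM in STAT3cKO hearts 3, 6 and 91. Fos was at 1.43, 15.7 and 6.46 CPM in the same STAT3cKO hearts. Neither passed (edgeR adjusted p = 0.177 for Egr1 and 0.302 for Fos). Of the 6 immediate early markers, 3 rose, Fosb, Junb and Ier2 (edgeR adjusted p = 0.0171, 0.016 and 0.0452), and 0 fell. Jun had a log2 fold change of -0.30 (adjusted p = 0.0667, edgeR). It was at 42.2, 44.7 and 39.7 CPM in STAT3cKO hearts 3, 6 and 91. Hbb-bs, a beta globin gene, was at 187.9, 372.1 and 196.9 CPM in those hearts, beside 44.0 to 82.1 CPM in wild type (adjusted p = 0.0305, edgeR). The order of the STAT3cKO hearts thus differed between these genes and the cardiac stress genes. Egr1, Fos, Fosb, Junb, Ier2, Jun and Hbb-bs were named after their values were seen, so this contrast is not a test.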
